A study of Mus musculus with 4 samples.

Results

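The 39 genes described here encode subunits of voltage-gated calcium and sodium channels, the membrane proteins that let calcium or sodium into nerve and muscle cells when the membrane depolarizes. They were chosen by name. Every probe whose target transcript maps in RefSeq to a mouse gene of the Cacna1, Cacna2d, Cacnb, Cacng or Scn series was kept, which gave 56 of the 39429 probes on the array and 39 of its 20971 named genes. RefSeq holds 40 such genes, and no probe was matched to Scn9a. Of the 39 genes, 26 belong to calcium channels and 13 to sodium channels, and 25 had 1 probe, 11 had 2 and 3 had 3.

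The data compare ears of mice exposed to diesel exhaust particles (DEPs) with control ears on 4 arrays that the labels call biological replicates. The mice were male BALB/c animals aged 6 to 10 weeks. DEP mice inhaled the particles for 1 h on each of 5 days, the treatment of the controls is given as none, and tissue of the temporal bone with the middle ear was collected on day 14. The study used 9 mice, and how many stand behind an RNA extract is not given. On each array 1 extract carried the red dye Cy5 and 1 the green dye Cy3, and the source names in the labels are DEP_ear for Cy5 and CON_ear for Cy3. The same labels list both treatments under Cy5 and no treatment under Cy3, so the source names were followed. No array swapped the dyes and all 4 arrays lay on 1 slide, so dye preference and exposure cannot be told apart for any probe.

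Values are log2 ratios of the DEP channel over the control channel, given for arrays 1, 2, 3 and 4 in that order, followed by the mean ± SD over the 4 arrays. A ratio below 0 means more signal in the control channel. The direction used here is opposite to that of the study, which lists Cacna1b and Cacnb2 among the genes with more expression after DEPs, together with their partners Pclo and Rims2. Pclo, fully measured here, had a mean of -1.66. Which direction is right cannot be told from the files, so DEP and control below mean the channels labelled so. With the sign turned, each higher and lower would change places, and the p-values would stay. The brightest probe of a gene, by mean signal, stands for the gene. A probe entered the test with a ratio on at least 3 arrays, and a probe is called above background where the image software set it well above its local background. A moderated two-sided test in limma asked whether each ratio differed from 0, and p-values were adjusted over 31577 probes by the Benjamini-Hochberg method. The number of arrays limits the precision: an exact sign-flip test over 4 arrays cannot give a p below 0.125, so no such test is reported.

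A voltage-gated calcium channel is built around a pore subunit (Cacna1 genes), whose surface level and gating are set by an alpha2delta subunit (Cacna2d genes) and a beta subunit (Cacnb genes). The gamma genes (Cacng) fall into a skeletal muscle kind that sits in the muscle calcium channel and a kind that mainly escorts AMPA-type glutamate receptors in the brain. A sodium channel has 1 pore subunit (Scn genes ending in a) with smaller beta subunits (Scn genes ending in b), which act in gating and cell adhesion. Skeletal muscle fibres rely on Cacna1s, the voltage sensor that triggers contraction, and on Scn4a, which carries the muscle action potential. Central neurons use mainly Scn1a, Scn2a, Scn3a and Scn8a, and pain-sensing neurons of sensory ganglia also use Scn9a, Scn10a and Scn11a. By where each subunit is best known, 20 of the 39 genes were placed in a neuronal class, 5 in skeletal muscle, 2 in sensory neurons, 3 in retina and hair cells, and 9 in heart, smooth muscle or broad use.

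The arrays did not all agree among themselves. Over all probes, Pearson's r between the ratios of 2 arrays ranged from -0.22 for arrays 1 and 4 to 0.61 for arrays 1 and 2. Between 25774 and 27177 probes were above background in the DEP channel and between 23351 and 26800 in the control channel. All 11 skeletal muscle markers and all 10 neuronal markers were above background in each channel of every array. The median ratio of the 17962 genes tested was 0.037.

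Of the 39 channel genes, 37 were tested with 51 probes. The 2 others, Cacna1c (the pore of the heart and smooth muscle L-type channel) and Cacna1e (a neuronal pore), were above background in neither channel. Among the 37, 27 were fully measured, that is above background in each channel of each array, 4 in both channels on some arrays, 3 in the control channel alone and 3 in neither. All 5 skeletal muscle subunits and 14 of 19 neuronal subunits were among the 27, and the 27 carry most values given here.

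More channel subunits had less signal in the DEP channel than had more, and the largest differences lay in neuronal and sensory genes. By mean ratio 28 of 37 lay below 0, against 44.7% of all genes tested, and 9 above 0, against 55.3%. Of the 27 fully measured genes 21 lay below 0, against 44.3% of such genes on the array. A mean 2-fold lower or more was seen for 14 of 37, against 4.1% of all genes, and for 10 of the 27 fully measured genes, against 2.78% of such genes. With the sign turned, these would be 14 and 10 genes 2-fold higher, against the same shares. With normexp background correction the 14 fell to 7 after loess, against 1.79% of all genes, and to 4 after median centring, against 1.01%. Of the 14, 11 are in the neuronal class and 2 in the sensory class. None of the 37 was 2-fold higher, against 2.15% of all genes, and none of the 27, against 0.805%. Among the 10 were Scn2a, Scn2b, Scn1a, Cacnb4, Scn10a, Cacna1a, Scn11a, Cacna2d2 and Scn3b, and 7 of the 10 are in the neuronal class. These counts rest on the first 2 arrays in large part, since 6 genes were 2-fold lower without array 1, against 2.84% of all genes, and 11 without array 2, against 3.4%. In extracts of whole tissue, fewer cells of a type and less RNA per cell cannot be told apart.

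No channel gene passed an adjusted p of 0.05 in limma, against 0% of all genes tested. At an unadjusted p under 0.05, 12 of 37 were lower, against 7.5% of all genes, and 3 were higher, against 9.2%. Among the 27 fully measured genes 7 were lower at that p, against 5.86%, and 2 were higher, against 6.67%. With normexp background correction and each array centred on its median, 6 of 37 passed an adjusted p of 0.05, against 21.2% of all genes in that setting. Those 6 were Cacna1d, Cacng3, Cacng4 and Scn3b, which were lower, and Cacng1 and Scn8a, which were higher. The spread between arrays was wide, and 6 of 37 genes had a ratio below 0 on all 4 arrays, against 10.2% of all genes, and 4 a ratio above 0 on all 4, against 16.2%. Among the 27, 3 genes (Cacng1, Scn4a and Scn8a) were above 0 on all 4 arrays, against 15.4% of fully measured genes.

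**Figure D1:**
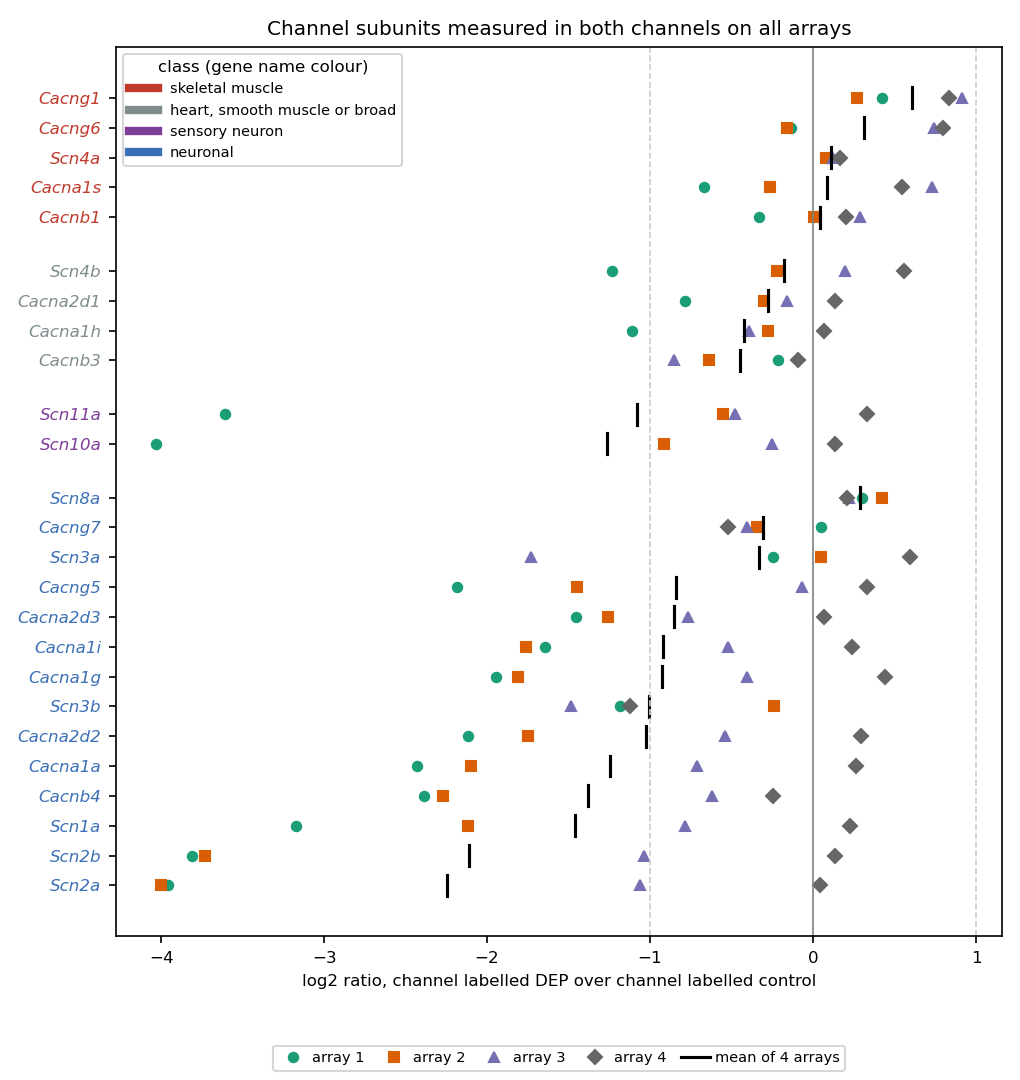
Log2 ratio of the DEP channel over the control channel (horizontal axis) for 25 of the 27 fully measured channel subunits, with 1 symbol per array, a black bar at the mean of 4 arrays and dashed lines at a 2-fold difference. Gene names are coloured by class. Most neuronal genes lie far below 0 on arrays 1 and 2 and near 0 on array 4, while the 5 skeletal muscle genes stay within 1 log2 unit of 0.

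By mean ratio the 2 lowest of the fully measured genes were sodium channel subunits of central neurons. Scn2a, the pore subunit of unmyelinated axons and early axon segments, had log2 ratios of -3.96, -4.0, -1.06 and 0.044, a mean of -2.24 ± 2.05. Its signal was 4.73 times as high in the control channel by that mean, with an SE of 0.80 and an adjusted p of 0.249 in limma. The mean was -3.01 without array 4 and -1.66 without array 2, and the other fully measured probe of Scn2a had -0.63. Scn2b, a beta subunit that binds to neuronal pores through a disulphide bond, had ratios of -3.81, -3.73, -1.04 and 0.13, a mean of -2.11 ± 1.97 (SE 0.77, adjusted p 0.255 in limma). Both genes had far less signal in the DEP channel on the first 2 arrays and nearly equal signals on array 4.

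Scn1a, the main pore of inhibitory interneurons, was also lowest on arrays 1 and 2, with ratios of -3.17, -2.12, -0.79 and 0.22 and a mean of -1.46 ± 1.49 (adjusted p 0.280 in limma). By their brightest probes, the other neuronal sodium channel genes, Scn3a, Scn3b and Scn8a, did not share this pattern. Scn3b, a beta subunit of central and sensory neurons, was lower on all 4 arrays at -1.18, -0.24, -1.49 and -1.13, a mean of -1.01 ± 0.54 (SE 0.23, adjusted p 0.158 in limma). Its least negative array was array 2, where Scn2a was far below 0.

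Scn3a, the pore subunit most used before birth, had ratios of -0.25, 0.047, -1.73 and 0.60 and a mean of -0.33 ± 1.00. Array 3 alone was far below 0 for Scn3a. Scn8a, the pore subunit of mature nodes of Ranvier, was slightly higher on all 4 arrays at 0.30, 0.43, 0.22 and 0.21, a mean of 0.29 ± 0.10 (SE 0.10, adjusted p 0.252 in limma), and was the only neuronal gene of the 14 with a mean above 0. A second Scn8a probe, above background in the control channel alone and on 2 arrays, read -3.14, -3.21 and -0.89 on arrays 1, 2 and 4. Averaged within each array, with array 3 from the brighter probe alone, the probes gave -0.73, so the sign for Scn8a depends on the probe.

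The stretches around the start sites of the 2 lowest fully measured neuronal genes and of the 2 muscle genes named above are shown because the neuronal and muscle classes are the ones compared here. They were chosen with the ratios known. Each window holds 300 bases in RefSeq on build GRCm38.p6, from 250 before to 50 after the annotated start, 5′ to 3′ on the gene's strand, and the window of Scn2a is 1 of its 2, the other of which holds neither motif searched. Scn2a lies at chr2:65668436-65668735 on the plus strand, Scn2b at chr9:45117626-45117925 on the plus strand, Scn4a at chr11:106349341-106349640 on the minus strand and Cacna1s at chr1:136052561-136052860 on the plus strand. Capitals mark a TATA box (letters TATAAA) in Scn2a. In Cacna1s they mark an E-box of the kind that muscle regulatory factors bind, with the letters CAGCTG.
Scn2a: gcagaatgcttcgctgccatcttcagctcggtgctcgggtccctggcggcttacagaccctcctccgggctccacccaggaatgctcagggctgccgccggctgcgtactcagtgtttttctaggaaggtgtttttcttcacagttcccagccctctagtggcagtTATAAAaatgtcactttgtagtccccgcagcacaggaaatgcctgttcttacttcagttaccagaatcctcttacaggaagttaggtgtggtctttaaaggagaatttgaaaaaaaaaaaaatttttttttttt
Scn2b: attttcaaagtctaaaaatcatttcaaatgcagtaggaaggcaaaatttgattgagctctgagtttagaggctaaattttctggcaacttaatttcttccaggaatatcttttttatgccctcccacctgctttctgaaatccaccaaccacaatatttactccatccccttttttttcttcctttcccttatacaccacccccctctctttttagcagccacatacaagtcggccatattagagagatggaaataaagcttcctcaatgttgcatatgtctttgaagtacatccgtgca
Scn4a: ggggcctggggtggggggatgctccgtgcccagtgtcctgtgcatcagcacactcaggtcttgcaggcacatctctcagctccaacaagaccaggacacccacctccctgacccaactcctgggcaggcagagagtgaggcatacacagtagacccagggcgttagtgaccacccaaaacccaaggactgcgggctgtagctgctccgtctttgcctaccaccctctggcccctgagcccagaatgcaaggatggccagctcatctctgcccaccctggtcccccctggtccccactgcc
Cacna1s: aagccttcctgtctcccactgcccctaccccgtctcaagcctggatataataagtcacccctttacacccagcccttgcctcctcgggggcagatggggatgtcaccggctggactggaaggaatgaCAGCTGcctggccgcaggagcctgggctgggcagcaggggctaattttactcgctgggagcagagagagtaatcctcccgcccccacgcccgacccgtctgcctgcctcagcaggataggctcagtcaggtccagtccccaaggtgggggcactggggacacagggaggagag

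The TATA letters of Scn2a start 84 bases before its start site and the E-box of Cacna1s 123 bases before, while neither motif was found in the windows of Scn2b and Scn4a. Both strands were searched for CAGCTG and TATAAA, which do not overlap. Among 40 windows of 29 channel genes, CAGCTG occurred in 13 (32.5%), against 16.3% of all 32851 windows, in 6 of 20 neuronal windows and in 1 of 5 muscle windows. TATAAA occurred in 2 of the 40, against 13.6% of all windows. The median GC content was 59.5% over the 40 windows, 59.2% over the neuronal ones and 63.0% over the muscle ones, against 52.7% over all. The 2 neuronal windows shown were poorer in G and C, at 47.7% for Scn2a and 38.3% for Scn2b, than the 2 muscle windows, at 63.0% each.

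Among the neuronal calcium channel pores, all 3 that were fully measured had less signal in the DEP channel on arrays 1 to 3. Cacna1a, the P/Q-type pore of fast nerve terminals and Purkinje cells, had log2 ratios of -2.43, -2.10, -0.71 and 0.26, a mean of -1.24 ± 1.25 (adjusted p 0.277 in limma). Cacna1g, a T-type pore of thalamic and cerebellar neurons, read -1.95, -1.81, -0.40 and 0.44, a mean of -0.93 ± 1.15. Cacna1i, another T-type pore, read -1.65, -1.76, -0.52 and 0.24, a mean of -0.92 ± 0.95. By its brightest probe each of the 3 was far below 0 on arrays 1 and 2 and above 0 on array 4, and a second probe of Cacna1i did not show this (its values are given with the other probes). Cacna1b, the N-type pore of nerve terminals that the study names, was above background in neither channel on any array, so that no fold is given, and its ratios on arrays 1, 2 and 4 were -1.29, -0.60 and -1.79.

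The neuronal beta and alpha2delta subunits of calcium channels that were fully measured were also lowest on arrays 1 and 2. Cacnb4, the beta subunit most used in the cerebellum, was lower on all 4 arrays with ratios of -2.39, -2.27, -0.62 and -0.25, a mean of -1.38 ± 1.105 (SE 0.44, adjusted p 0.221 in limma). Cacna2d2, the alpha2delta subunit of Purkinje cells, read -2.12, -1.75, -0.54 and 0.30, a mean of -1.03 ± 1.11. Cacna2d3, a further neuronal alpha2delta subunit, read -1.45, -1.26, -0.77 and 0.065, a mean of -0.85 ± 0.68 (adjusted p 0.229 in limma). Cacnb4 thus joined Scn3b as the only fully measured neuronal genes with 4 of 4 arrays below 0.

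The neuronal gamma subunits were mostly dim. Cacng2, known as stargazin, which brings AMPA receptors to the surface of cerebellar granule cells, was above background on 4 arrays in the DEP channel and on 3 in the control channel. Its ratios were -3.52, -4.47, -0.99 and 0.066, a mean of -2.23 ± 2.12 (SE 0.83, adjusted p 0.259 in limma). Cacng5 read -2.18, -1.45, -0.070 and 0.33, a mean of -0.84 ± 1.17. Both had their low values on the first 2 arrays. Cacng7, a relative of Cacng5, read 0.050, -0.34, -0.41 and -0.52, a mean of -0.31 ± 0.25, so that its order over arrays ran against that of Cacng5. Cacng3 and Cacng4 were above background in the control channel on 2 arrays each and in the DEP channel on none, and Cacng8 was above background in neither channel.

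None of the 5 skeletal muscle subunits differed by 2-fold between the channels on any array, and most genes did not either. Of 14284 fully measured genes, 1144, 670, 407 and 378 were 2-fold lower on arrays 1 to 4. Those 2-fold higher numbered 1085, 67, 277 and 133. The muscle calcium channel has the pore Cacna1s, the beta subunit Cacnb1 and the gamma subunit Cacng1. Cacna1s had log2 ratios of -0.67, -0.27, 0.73 and 0.55, a mean of 0.085 ± 0.66 (adjusted p 0.882 in limma). Cacnb1 read -0.33, 0.0050, 0.29 and 0.20, a mean of 0.041 ± 0.27 (adjusted p 0.891 in limma). Both were below or near 0 on arrays 1 and 2 and above 0 on arrays 3 and 4.

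Cacng1, the gamma subunit that limits calcium entry through the muscle channel, was above 0 on all 4 arrays at 0.42, 0.27, 0.91 and 0.83. Its mean of 0.61 ± 0.31, a 1.53-fold higher signal in the DEP channel, had an SE of 0.16, an unadjusted p of 0.011 and an adjusted p of 0.175 in limma. Cacng6, a relative of Cacng1, read -0.14, -0.16, 0.74 and 0.80, a mean of 0.31 ± 0.53. Scn4a, the muscle sodium channel, varied least of the 37 genes, at 0.084, 0.077, 0.12 and 0.17 with a mean of 0.11 ± 0.041 (adjusted p 0.562 in limma). The means of Scn4a and Cacnb1 were so near 0 that they turned to -0.022 and -0.017 with normexp and loess.

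Set side by side, the median of the muscle subunits lay above that of the neuronal ones on every array, while single genes of the classes overlapped. The median ratio of the 14 fully measured neuronal genes was -2.03, -1.75, -0.67 and 0.22 on arrays 1 to 4. The median of the 5 muscle genes was -0.14, 0.0050, 0.73 and 0.55. Muscle minus neuronal was therefore 1.89, 1.76, 1.40 and 0.33, a mean of 1.34 ± 0.71 over the 4 arrays, and it was 1.38 ± 0.62 with all 19 neuronal genes tested. The medians over the gene means were -0.97 for the 14 neuronal genes, -1.03 for all 19 tested and 0.11 for muscle, against 0.037 for all genes. The classes were set from known sites of expression with earlier results at hand, so the difference is given without a test.

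Counts on single arrays showed where the neuronal values came from. On array 1, 11 of the 14 neuronal genes were 2-fold lower or more, against 8.01% of fully measured genes. On array 2 there were 10, against 4.69%, on array 3 there were 4, against 2.85%, and on array 4 there was 1, Scn3b, against 2.65%. None of the 5 muscle genes was 2-fold lower on any array. On arrays 3 and 4 all 5 muscle genes lay above 0, against 51.5% and 56.3% of fully measured genes.

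**Figure D2:**
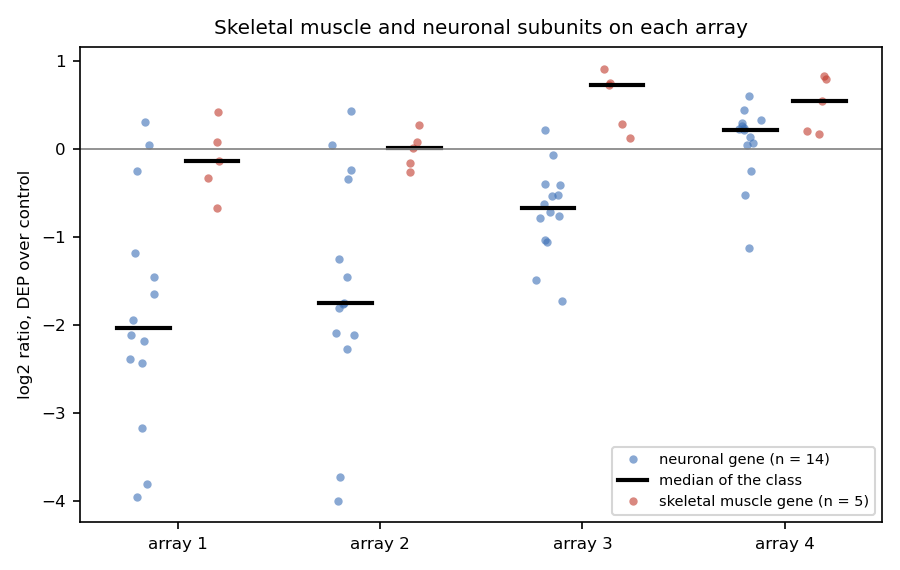
Log2 ratio of the DEP channel over the control channel (vertical axis) on each of the 4 arrays, with 1 point per gene for 14 neuronal (blue) and 5 skeletal muscle (red) subunits, all fully measured, and a black bar at the median of the class. The neuronal median moves from -2.03 on array 1 to 0.22 on array 4, and the muscle median lies above it on each array.

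The 2 subunits of pain-sensing neurons had a pattern of their own. Scn10a, the pore that carries the action potential of nociceptors, had log2 ratios of -4.03, -0.92, -0.25 and 0.14, a mean of -1.26 ± 1.89 (SE 0.74, adjusted p 0.403 in limma). Scn11a, the pore of a persistent current in the same cells, read -3.61, -0.55, -0.48 and 0.33, a mean of -1.08 ± 1.73 (SE 0.68, adjusted p 0.433 in limma). Array 1 stood far below the other arrays for both, where the central genes Scn2a and Scn2b were low on arrays 1 and 2 alike. Without array 1 the means were -0.34 for Scn10a and -0.23 for Scn11a, so both count as 2-fold lower through that array.

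**Figure D3:**
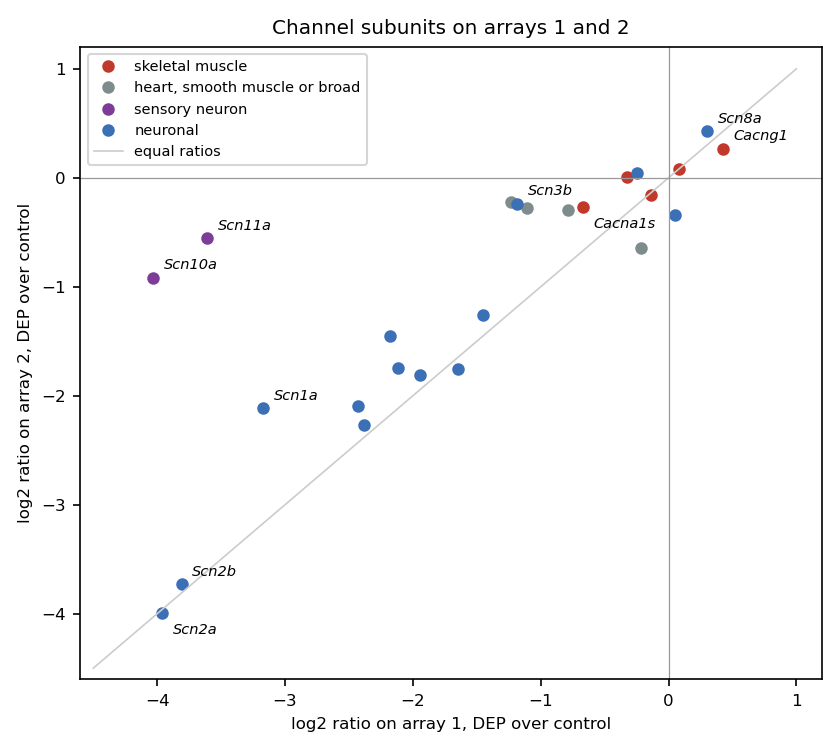
Log2 ratio on array 2 (vertical axis) against array 1 (horizontal axis) for 25 of the 27 fully measured channel subunits, coloured by class, with a line of equal ratios. Scn2a and Scn2b lie near -4 on both arrays, Scn10a and Scn11a near -4 on array 1 and above -1 on array 2, and the 5 muscle genes lie near 0 on both.

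The signal of each channel by itself, scaled between arrays, was looked at after the ratios were known. It shows which channel varied, although such signals are open to dye bias. Scn2a had log2 signals of 6.95, 6.70, 7.33 and 6.83 in the DEP channel and of 10.91, 10.70, 8.39 and 6.78 in the control channel. Scn2b had 8.74, 8.61, 9.20 and 8.59 in the DEP channel and 12.55, 12.34, 10.24 and 8.46 in the control channel. For both genes the extracts labelled DEP were nearly level, and those labelled control ran from the DEP level on array 4 to about 4 log2 units above it on array 1.

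Over the 14 neuronal genes the median SD across arrays was 1.00 log2 units in the control channel and 0.28 in the DEP channel. The control channel varied more in 13 of 14 (92.9%), against 57.2% of fully measured genes. It also varied more in 4 of 5 skeletal muscle genes (median SD 0.48 against 0.29). The same held for 5 of 6 genes of heart, smooth muscle or broad use (0.35 against 0.20) and for 0 of 2 sensory genes. Relative to array 4, the median neuronal control signal was 1.93, 1.62 and 0.75 log2 units higher on arrays 1, 2 and 3. The same difference in the DEP channel was -0.025, -0.29 and 0.0070. In 10 of the 14 genes both extracts labelled control on arrays 1 and 2 had more signal than those on arrays 3 and 4, against 25.5% of fully measured genes, and in the other 4 (Cacng7, Scn3a, Scn3b and Scn8a) they did not.

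The sensory genes differed in the other channel. Scn10a had log2 signals of 5.03, 9.04, 9.56 and 9.96 in the DEP channel and of 9.06, 9.95, 9.81 and 9.83 in the control channel. Scn11a had 5.02, 8.75, 8.94 and 9.50 in the DEP channel and 8.63, 9.31, 9.42 and 9.17 in the control channel. Only the extract labelled DEP on array 1 stood apart from the other 7 extracts for these 2 genes. Scn4a stayed between 7.0 and 7.28 in all 8 extracts, and Scn8a between 9.51 and 9.93.

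**Figure D4:**
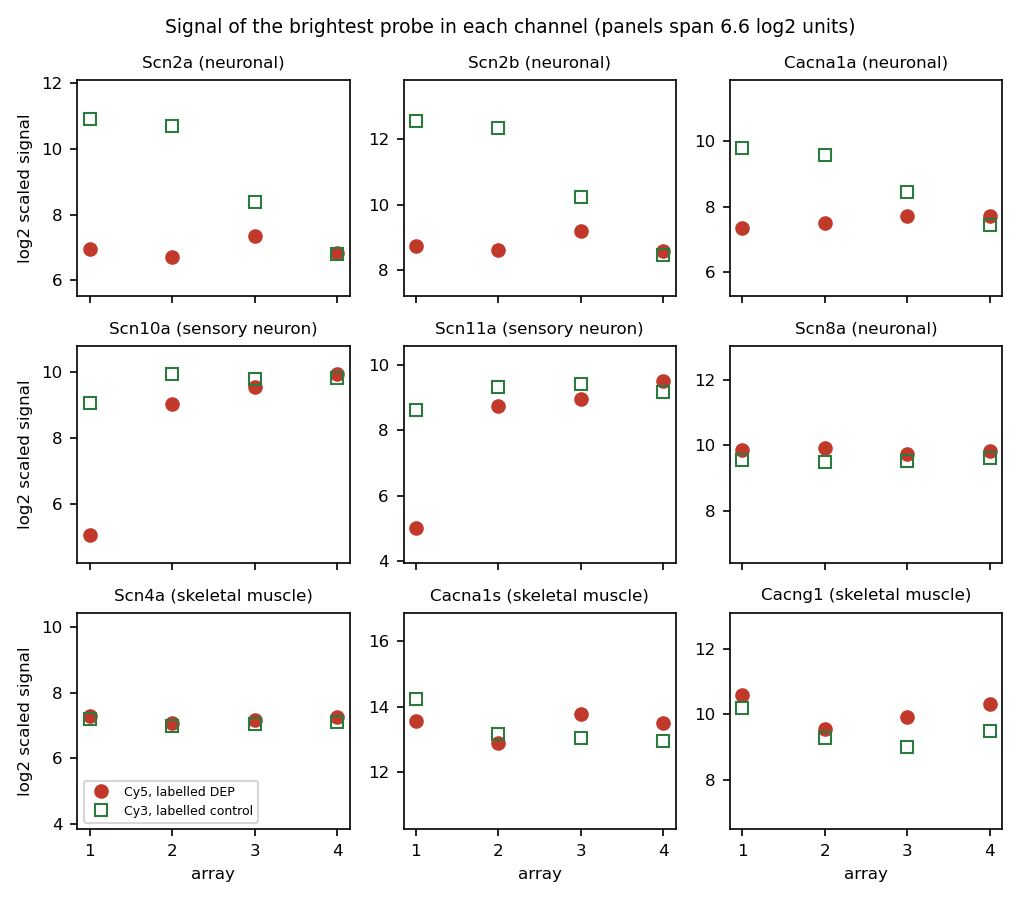
Log2 scaled signal (vertical axis, each panel spanning the same number of log2 units) of 9 channel subunits on arrays 1 to 4, with the DEP channel as filled red circles and the control channel as open green squares. Levels may be compared within a panel and not between panels. Scn2a, Scn2b and Cacna1a vary in the control channel, Scn10a and Scn11a drop in the DEP channel of array 1, and Scn8a and Scn4a are level.

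Subunits of heart, smooth muscle or broad use were lower by less, with a median of -0.35 over 8 genes, and all 8 means lay below 0, against 44.7% of all genes. Cacnb3, a beta subunit of brain and smooth muscle, read -0.22, -0.64, -0.85 and -0.090, a mean of -0.45 ± 0.36 (adjusted p 0.261 in limma), and was below 0 on all arrays.

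Cacna1h, a T-type pore, read -1.11, -0.28, -0.39 and 0.070, a mean of -0.43 ± 0.49, and a second Cacna1h probe read 0.18, 0.35, -0.12 and -0.21, a mean of 0.050. Cacna2d1, the alpha2delta subunit of muscle and many neurons, read -0.79, -0.30, -0.16 and 0.13, a mean of -0.28 ± 0.38. The arrays ranked for Cacna2d1 as they did for the neuronal medians, and for the Cacna1h probes they did not. Scn4b, a beta subunit of heart, muscle and neurons, read -1.24, -0.22, 0.20 and 0.56, a mean of -0.18 ± 0.77. Scn7a, a sodium-sensing relative found in glia and nerve, read -0.34, 0.25, -0.73 and -0.025 and was above background in both channels on some arrays only.

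Cacnb2, the heart beta subunit that the study names, could not be given a fold. Its brighter probe was above background on 2 arrays in the control channel and on none in the DEP channel, with ratios of -1.68, -0.70, 0.76 and -0.024. Its other probe was above background in neither channel. The dim genes of retina and hair cells were little better measured. Cacna1d, the pore of inner hair cells and pacemaker cells, was above background on 3 arrays in each channel, read -1.32, -0.78, -0.87 and -0.77 with a mean of -0.94 ± 0.26, and had the smallest adjusted p of all channel genes, 0.108 in limma. Its second probe, above background in neither channel, had a mean of -0.058. Cacna2d4 was above background on 3 arrays in each channel with a mean of 0.084 ± 0.93, and Cacna1f was above background in neither.

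By family, the sodium channel beta subunits Scn2b and Scn3b had means of -2.11 and -1.01, and Scn4b had -0.18. The median was -0.93 over 8 calcium channel pores, -0.57 over 4 alpha2delta subunits, -0.43 over 4 calcium channel beta subunits, -0.57 over 8 gamma subunits and -0.33 over 9 sodium channel pores. Over fully measured genes alone the median was 0.0028 for 4 gamma subunits and -0.71 for 8 sodium channel pores, -0.92 for 5 calcium channel pores, -0.85 for 3 alpha2delta subunits and -0.45 for 3 calcium channel beta subunits. Within the pores of sodium channels the means ran from -2.24 for Scn2a to 0.29 for Scn8a. The SD between arrays in this family ran from 0.041 for Scn4a to 2.05 for Scn2a, so that the order of the means is not settled for the genes with wide spreads.

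Several members lie side by side in RefSeq (GRCm38.p6) with no other protein-coding gene between them. Scn2b and Scn4b are neighbours on chromosome 9 and had means of -2.11 and -0.18. Scn10a and Scn11a also adjoin on chromosome 9, with means of -1.26 and -1.08. Scn3a and Scn2a adjoin on chromosome 2 with means of -0.33 and -2.24. Cacng1, Cacng4 and Cacng5 adjoin on chromosome 11, where the muscle gene Cacng1 had 0.61 and the neuronal Cacng5 had -0.84. Apart from Scn10a and Scn11a, these adjacent genes had means that differed in size or sign.

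Genes with several probes allow the reading to be repeated in another stretch of the transcript. For Cacna1s the 2 probes had means of 0.085 and 0.11, for Cacna1a -1.24 and -1.54, and for Cacna2d1 -0.28 and -0.39. These pairs agreed within the spread between arrays. For Scn2a, a further fully measured probe read -0.47, -1.04, -0.46 and -0.56, a mean of -0.63 ± 0.27 (adjusted p 0.159 in limma), against -2.24 for the brightest probe. Cacna1g had -0.93 from its brightest probe and -0.47 from the other. The second Cacna1i probe, fully measured, read 0.13, -0.11, -0.56 and -0.64, a mean of -0.30 against -0.92 for the brightest, and had its lowest values on arrays 3 and 4. The second Cacna1a probe was below 0 on all 4 arrays, with -0.31 on array 4. Cacna1h was the only gene whose fully measured probes differed in sign.

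**Figure D5:**
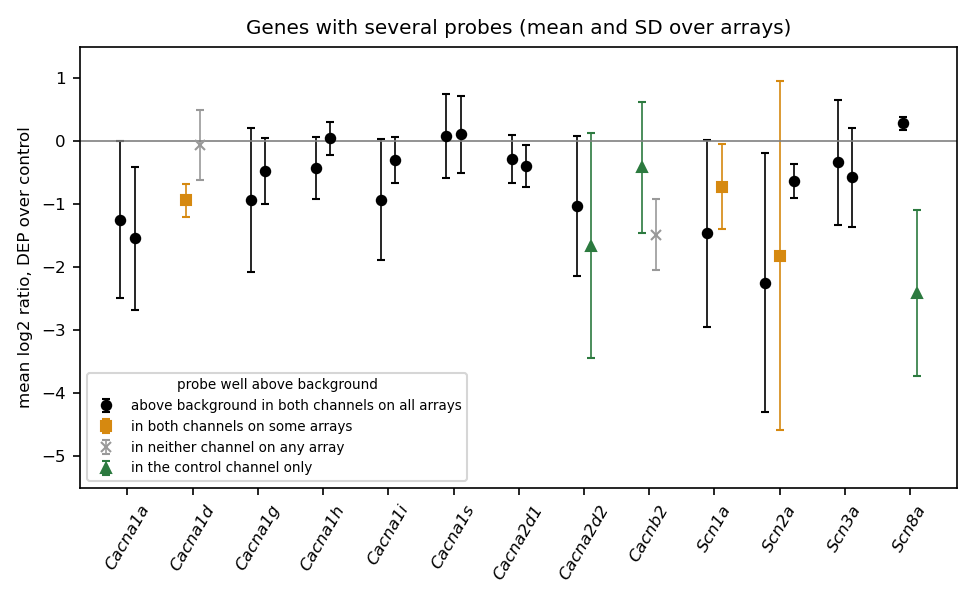
Mean log2 ratio of the DEP channel over the control channel (vertical axis, error bars SD over arrays) of each tested probe for the 13 channel genes with more than 1 tested probe. Symbols give in which channels a probe was above background. The probes of Cacna1s coincide near 0, those of Scn2a range from -2.24 to -0.63, and those of Scn8a lie on both sides of 0.

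Most listed genes that work with neuronal channels lay below 0 by mean, and those that work with the muscle channel lay on both sides of 0. The presynaptic partners, which tether calcium channels to vesicles, were below 0 in 9 of 9 genes tested, with a median of -1.22. Of the 9, 5 were past 2-fold lower, against 4.1% of all genes. At an unadjusted p under 0.05 in limma, 7 were lower, against 7.5%. Only 6 of the 9 were fully measured, with a median of -1.11 and 3 past 2-fold lower, against 2.78% of such genes. Over all partners tested, the medians on arrays 1 to 4 were -2.31, -1.89, -0.79 and -0.29. Bsn, a scaffold of the active zone, had ratios of -2.31, -1.89, -0.94 and -0.39. AMPA receptor genes and their escorts were below 0 in 4 of 4 tested, with a median of -1.23, and of -0.99 over the 3 fully measured. Ankyrins, spectrin, neurofascin and related modulators of sodium channels were below 0 in 8 of 9, with a median of -0.73 and 5 lower at an unadjusted p under 0.05, against the same 7.5%.

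The sodium leak channel, which sets the resting potential of neurons, was below 0 in 4 of 4 genes with a median of -1.08, and its pore Nalcn read -0.78, -0.77, -1.41 and -0.85. Proteins that couple the muscle calcium channel to the calcium store were divided, 5 below and 4 above 0 among 9 with Cacna1s left out, with a median of -0.050 and array medians of -0.77, -0.36, 0.69 and 0.63. Ryr1, the release channel that Cacna1s opens, read -0.30, 0.25, 0.79 and 0.63. The 4 small inhibitors of calcium channels had a median of 0.16, with 1 below and 3 above 0. None of these partner genes passed an adjusted p of 0.05 in limma.

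Markers of neurons and of the cerebellum had their lowest array medians on arrays 1 and 2, as the neuronal channel class had. The 10 neuronal markers were all below 0 by mean, against 44.7% of all genes tested, with array medians of -2.11, -1.30, -0.73 and 0.29. Snap25 and Syt1 are among them and are also counted with the presynaptic partners. Summed marker signals are of deposited signals not scaled between arrays, so array brightness enters them. For neuronal markers they ranged from 22673 to 35030 in the DEP channel and from 26198 to 90665 in the control channel. All 7 cerebellar markers tested of 8 listed were below 0 by mean, with array medians of -3.07, -3.93, -0.24 and 0.22. Their summed control signal was 77045 and 58423 on arrays 1 and 2 and 6304 and 3727 on arrays 3 and 4, against 3597 to 11587 in the DEP channel. Car8, a Purkinje cell gene, and Cbln3, a granule cell gene, were above background in the control channel on 2 arrays and never in the DEP channel. The cerebellar sums were thus high in the same 2 extracts labelled control in which Scn2a and Scn2b were high.

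Markers of peripheral sensory neurons were lowest on array 1, as Scn10a and Scn11a were. All 7 were below 0 by mean, with array medians of -2.52, -0.64, -0.97 and 0.64, and their summed DEP signal was 956 on array 1 against 7825 to 12155 on the other arrays. The control channel ranged from 8733 to 18281. Skeletal muscle markers, like the muscle channels, had higher medians on arrays 3 and 4 than on arrays 1 and 2, with 3 of 11 below 0 and 8 above, a median of 0.070 and array medians of -0.81, -0.34, 0.74 and 0.79. Their summed signal ranged from 332460 to 594390 in the DEP channel and from 281255 to 944028 in the control channel. Smooth muscle markers, with array medians of -0.30, 0.33, -0.96 and -0.12, did not rank the arrays as the channel class of heart, smooth muscle or broad use did (-0.95, -0.29, -0.38 and -0.024). By mean, 5 of 6 astrocyte markers, 4 of 6 myelin markers, 2 of 4 heart markers, 1 of 5 hair cell markers and 3 of 6 epithelial markers lay below 0. Astrocyte markers had array medians of -1.90, -0.45, -0.027 and 0.21. Those of myelin markers were -0.80, -0.17, -0.27 and 0.29, so both lists were lowest on array 1. The part of these cell types in the channel ratios was not tested.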

How the data were processed

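RNA of mouse ears was measured on 4 two-colour Agilent arrays. Spots were read by the authors in Feature Extraction 10.10.1.1, and the deposited intensity is background-subtracted and dye-normalized. Each file also gives a log10 value of Cy5 over Cy3 deposited by the authors, whose value table repeats these log10 ratios and was used as an alternative only. A later analysis platform is named by the authors without a test.

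Ratios were converted to log2. Control spots, spots with an outlier flag (164 to 274 per array) and spots without a ratio (6179 to 8558 of 43020) were left out, no spot was saturated, and spots of a probe were averaged. Probes were named by accession through RefSeq (GRCm38.p6), which matched 27655 of 39429. An intercept was fitted with lmFit and eBayes in limma 3.58.1 under R 4.3.3 (prior degrees of freedom 1.98). On simulated ratios for DEP over control, 77 of 31577 probes were called, 2 of them false, recovering 56 of 100 changed by 2 and 19 of 100 changed by 1 on the log2 scale. The deposited channel signals were scaled between arrays with Aquantile, which leaves the ratio on each array as it was. Promoter windows and probe annotation come from RefSeq, and no probe or protein sequence was used here. Tables and figures were made in Python (3.11.15) with matplotlib (3.10.9), pandas (2.3.3) and numpy (2.4.6).

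The members, their classes, the partner and marker lists and the tests were chosen with earlier results of these data known. Array values are given for fully measured genes and for Cacna1b and Cacnb2, which the study names, and 2 fully measured genes are counted but not reported here by value. Values of other dim genes and of the partner and marker genes named were chosen after they were seen. The alternatives were normexp (offset 50) on median spot signals (mean signals are not among the columns) with loess or median centring, centred ratios, the authors' table, 2 filters on dim probes, keeping flagged spots, the mean of probes, an intensity trend, no moderation, wider classes and leaving out each array. With 1 slide, no batch could be tested, and 0 columns of values were without a sample.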

Additional observations from a re-analysis of the deposited data

Results flagged for a closer look

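Among 34 channel genes with a ratio on all 4 arrays, 1 had an array far from the others by Dixon's test, and chance picks about 1 in 20 such groups. The lowest ratio of Cacng3, a gamma subunit that escorts AMPA receptors in forebrain neurons, was -2.29 on array 2, while arrays 1, 3 and 4 read -1.15, -1.17 and -1.03. Its DEP channel was above background on no array and its control channel on 2.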

How the results depend on the processing

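The neuronal median stayed below 0 in every alternative, from -1.39 to -0.58, the muscle median above 0, from 0.02 to 0.34, and their difference between 0.78 and 1.48. The median of all genes was 0.21 with normexp and median centring and at most 0.044 in the others. The count of channel genes 2-fold lower was 14. With normexp it was 7 after loess and 4 after median centring, and it ran from 6 (without array 1) to 16 (without array 3 or 4) with 1 array left out. The count at an adjusted p under 0.05 in limma was 0, and 6 with normexp and median centring. Of 373 tested values of 29 genes under the alternatives, 359 kept sign and side of the threshold, 3 passed it (Cacng1, Scn3b and Scn8a with normexp and median centring) and 11 turned sign, as did 1 of 29 means over probes, which have no test. With normexp and loess, Cacnb1 was at -0.017 and Scn4a at -0.022. With normexp and median centring, Cacna2d1 was at 0.078 and Scn4b at 0.25. The mean of its probes put Scn8a at -0.73. The other 7 arose with 1 array left out, where Cacnb1 ranged from -0.041 to 0.16, Cacnb2 from -0.80 to 0.011, Cacna1s from -0.13 to 0.34, Scn3a from -0.64 to 0.13 and Scn4b from -0.42 to 0.18. The cause was not tested. No paired analysis was possible because each ratio already sets the channels of 1 array against each other and the labels pair nothing further. Signal over background limits the 10 tested genes that were not fully measured.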
